A study of Mus musculus with 714 samples.

Results

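The nuclear genes of the mitochondrial respiratory chain were followed in single epithelial cells of the uterus of newborn to adult mice. Members were taken by name: every row of the count table whose gene symbol starts with Nduf, Sdh, Uqcr or Atp5, or with Cox followed by 4 to 8, together with Cycs and Cyc1. This gave 77 of 12479 rows. They comprise 65 subunits (30 of complex I, 3 of complex II, 7 of complex III, 14 of complex IV and 11 of complex V), cytochrome c, 6 assembly factors, 3 pseudogene rows of Atp5l, and Atp5s and Atp5sl, which carry an Atp5 name without being subunits. Ndufa4 and Ndufa4l2 were counted with complex IV. All cells came from the uterus of ICR mice, an outbred stock, and had been sorted for CD326 (EpCAM), a surface protein of epithelial cells. The 714 cells fall into 5 ages, postnatal day (pnd) 0, 7, 14, 28 and 56, with no other treatment or genotype named. The ages sum to 582615, 732957, 354047, 96248 and 81894 counts, with cell medians of 3037, 2492, 1782, 1600 and 1670. No animal, litter or pool is named, so each age stood as 1 sample and no test was made; every bracket below is a 95% interval of counting error only. Blocks of 96 consecutive cell numbers in the labels are called runs here; their meaning is not labelled, and they are not shown to be replicates. The 10 runs hold 88 and 85 cells at pnd0, 88, 87 and 92 at pnd7, 70, 24 and 79 at pnd14, 56 at pnd28 and 45 at pnd56. No run holds more than 1 age, so age and run cannot be told apart. Of the markers that define epithelium, Krt18 had 9026 counts and Krt7 1303, and Epcam, the sorting marker, was present. Krt8, also a keratin of simple epithelia, had 11 counts and Krt19 had 23. Cldn4 was at 0 at pnd14, pnd28 and pnd56. The Krt8 and Krt19 genes lie on the minus strand, whose rows were mostly low in the whole table. Not every such row was low: Gapdh, also on the minus strand, had 11824 counts. Whether strand accounts for the low Krt8 and Krt19 counts was not tested, and these counts are not read as low transcripts.

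The respiratory chain sits in the inner mitochondrial membrane. Complex I takes electrons from NADH and complex II from succinate; ubiquinone carries them to complex III, and cytochrome c carries them on to complex IV, which reduces oxygen. Complexes I, III and IV move protons across the membrane, and complex V, the ATP synthase, uses the returning protons to make ATP. Most subunits are encoded in the nucleus, and their genes are widely regarded as housekeeping genes under partly shared control by the nuclear respiratory factors. In the uterus the epithelium changes from a simple tube at birth to a lumen with glands in the adult.

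The promoters of Uqcrc1 of complex III, which was higher at pnd56 than at any other age, and of Cox5b of complex IV, which was lowest at pnd28, are shown because nuclear respiratory factor 1 (NRF1) is a known regulator of this gene class. The sequences are from RefSeq (GRCm38.p6), 250 bases before to 50 after the gene start, on the plus strand of chr9:108936398-108936697 for Uqcrc1 and chr1:36691237-36691536 for Cox5b. Capitals mark matches to the NRF1 motif GCGCANGCGC on either strand.
Uqcrc1: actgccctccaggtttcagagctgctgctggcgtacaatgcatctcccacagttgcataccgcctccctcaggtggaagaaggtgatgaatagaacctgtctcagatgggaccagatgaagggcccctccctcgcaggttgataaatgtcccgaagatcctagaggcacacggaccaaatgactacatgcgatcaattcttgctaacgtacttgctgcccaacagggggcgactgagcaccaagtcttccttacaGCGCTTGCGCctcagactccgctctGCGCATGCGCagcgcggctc
Cox5b: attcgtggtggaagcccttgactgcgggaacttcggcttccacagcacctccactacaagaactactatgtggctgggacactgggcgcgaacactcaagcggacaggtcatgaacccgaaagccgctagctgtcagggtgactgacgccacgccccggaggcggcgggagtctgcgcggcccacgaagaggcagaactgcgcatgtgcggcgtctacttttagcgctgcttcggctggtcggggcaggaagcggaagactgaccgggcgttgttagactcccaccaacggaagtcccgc
The Uqcrc1 window held 2 such matches and the Cox5b window 0, with near matches not counted. Promoters were found for 52 of the 66 subunits and cytochrome c. The NRF1 motif was in 10 of these 52 (19.2%), against 4.68% of all 27025 promoters of the table. Of the 10, only Uqcrc1 had at least 50 counts over all cells. The promoters of Cycs, Ndufs7 and Atp5b, which were also higher at pnd56 than at pnd0, held no NRF1 match. Whether the motif goes with level was not tested. The ETS core CCGGAA was in 18 (34.6%, against 15.1% of all) and the CCAAT box in 22 (42.3%, against 37.8%). Each motif was searched on both strands. A match is a description of the letters, not of binding.

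The table measured only part of the chain, and which members carried counts went with the strand of the gene. Of the 77 members, 40 had at least 50 counts over all cells, and the other 37 had 49 counts or fewer each, out of 48569 in all. With strand taken from GENCODE M21, the 33 plus-strand members had a median of 842 counts and only 4 were under 50. The 43 minus-strand members had a median of 12 counts, and 33 were under 50. Subunits that every cell uses were among these low rows: Cox8a and Cox7a2 of complex IV had 4 counts each, Atp5g1 of the membrane ring of complex V had 5, Ndufv2 of complex I had 4 and Sdha, the catalytic flavoprotein of complex II, had 26. The same split ran through the whole table. Its 7330 plus-strand rows had a median of 62 counts and 80.5% of all counts, and its 4777 minus-strand rows a median of 8 counts and 15.4%. Of the protein-coding genes in the annotation, 64.6% of those on the plus strand and 41.4% of those on the minus strand had a row. The minus-strand share was 15.3%, 15.8%, 15.2%, 15% and 14% of counts over the 5 ages. CEL-seq keeps the strand of the RNA, but the strand setting of the counting is not stated, and the cause of the split was not tested. Levels of 1 member are therefore compared between ages below, and a low row is not read as a low transcript.

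**Figure D1:**
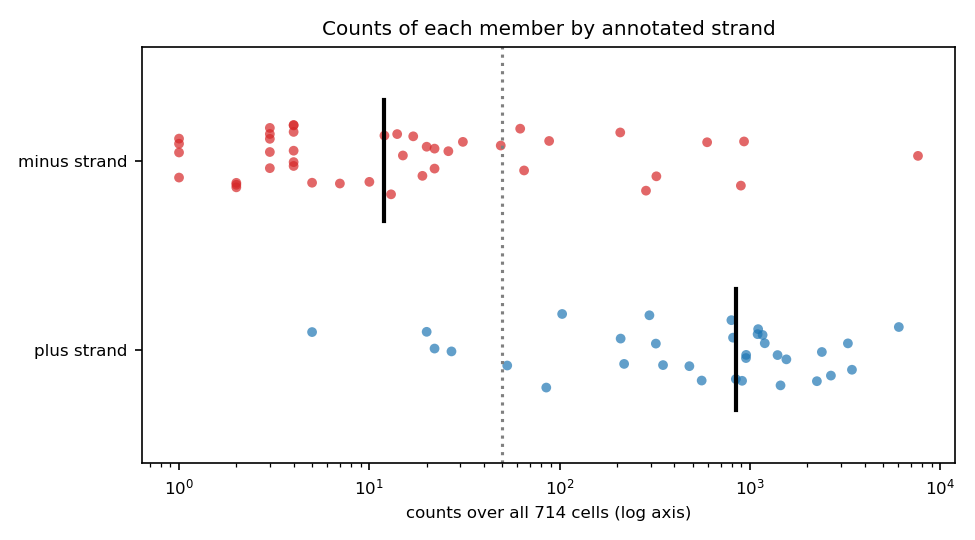
Counts over all 714 cells (x axis, log scale) of each member with an annotated strand, 1 point per member; black bars are medians and the dotted line marks 50 counts. The plus-strand members have a median of 842 and the minus-strand members a median of 12, with Ndufb10 the highest minus-strand point at 7627.

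Exceptions among the minus-strand members were few. Ndufb10, an accessory subunit of the membrane arm of complex I, had 7627 counts, more than any other member. Its gene ends tail to tail with Rps2, a ribosomal protein gene on the plus strand, within 1000 bases; no row for Rps2 was analysed here. Ndufv1, which binds NADH and the flavin of complex I, ends next to Doc2g in the same way, and the assembly factor Ndufaf3 next to Impdh2. Of the 7 minus-strand members with at least 100 counts, these 3 have such a neighbour, against 3 of the 36 minus-strand members under 100 counts. Atp5j, Ndufab1 and Cycs are among the other 4. Reads from overlapping gene ends could have been given to either gene, so the levels of Ndufb10, Ndufv1 and Ndufaf3 are uncertain. The same limit holds for plus-strand members that end tail to tail with a gene. Among them are Cyc1 (next to Sharpin), Uqcrc2 (Pdzd9), Ndufb7 (Tecr), Ndufa3 (Tfpt) and Ndufb2 (Braf). Of the 37 low members 12, and of the 36 others with a transcript 7, shared at least 10% of their last 300 bases with other genes, counted in words of 40 bases.

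Together the members held 2.47% [2.43, 2.51] of all counts at pnd0, 2.79% [2.76, 2.83] at pnd7, 2.58% [2.53, 2.63] at pnd14, 2.39% [2.29, 2.48] at pnd28 and 2.77% [2.66, 2.89] at pnd56. The share thus stayed between 2.39% and 2.79% at every age. The 2 pnd0 runs had 2.45% and 2.50%, the 3 pnd7 runs 2.92%, 2.97% and 2.56%, and the 3 pnd14 runs 2.49%, 2.48% and 2.71%. Every pnd7 run lay above both pnd0 runs, while pnd7 and pnd14 runs overlapped. The log2 ratio was 0.18 [0.15, 0.21] for pnd7 against pnd0, −0.12 [−0.15, −0.08] for pnd14 against pnd7, −0.11 [−0.18, −0.05] for pnd28 against pnd14 and 0.22 [0.13, 0.30] for pnd56 against pnd28. From birth to adulthood it was 0.17 [0.10, 0.23], and this direction depended on the scaling: median-of-ratios scaling, which moves this comparison by −0.27, gave −0.10. With each cell thinned to 1500 counts it was 0.066 [−0.032, 0.16], and pnd28 against pnd14 was −0.081 [−0.17, 0.012]. Without cells that hold marker counts of other cell types, pnd28 against pnd14 was −0.076 [−0.16, 0.005]. All these thinned and marker-free intervals include no difference. In single cells the share ranged from 0.669% to 4.43% at pnd0 (median 2.46%), from 0.988% to 6.62% at pnd7 (median 2.74%), from 0.870% to 4.26% at pnd14 (median 2.57%), from 0.850% to 4.87% at pnd28 (median 2.20%) and from 1.499% to 5.58% at pnd56 (median 2.87%).

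The complexes did not keep 1 proportion over the ages. Complex I held 1.15%, 1.32%, 1.21%, 0.988% and 1.13% of counts over the 5 ages, and complex V 0.617%, 0.717%, 0.633%, 0.682% and 0.771%. Complex IV held 0.335%, 0.340%, 0.335%, 0.346% and 0.399%. Complex II held 0.0915%, 0.0870%, 0.0890%, 0.0499% and 0.0586%, so it was lowest at the last 2 ages. Complex III held 0.145%, 0.169%, 0.155%, 0.154% and 0.267%, and its pnd56 value of 0.267% [0.233, 0.305] lay above every run of every other age, the highest of which was 0.191%.

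Set against the rest of the members, complex III was 1.71-fold higher at pnd56 than at pnd0 (log2 0.78 [0.54, 1.003]) and complex II 1.78-fold lower (log2 −0.83 [−1.30, −0.40]). Complex I was 1.28-fold lower (log2 −0.36 [−0.49, −0.22]) and complex V 1.16-fold higher (log2 0.21 [0.06, 0.36]). Complex IV differed by 0.10 [−0.09, 0.29] on the log2 scale, an interval that includes no difference. These ratios within the members do not depend on how the ages are scaled. Of the 7 rows of complex III, Cyc1, Uqcrc1 and Uqcrc2 hold 39.8%, 30.3% and 27.1% of its counts, and complex II is nearly all Sdhb, at 98.1%.

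**Figure D2:**
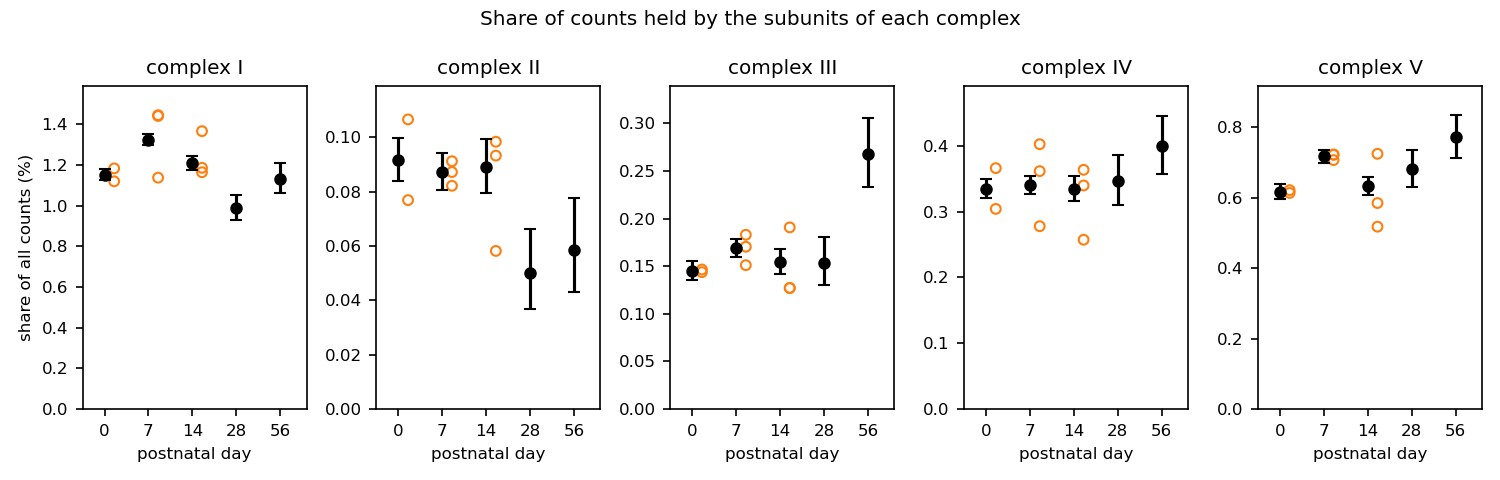
Share of all counts (y axis, %) held by the subunits of each complex at each postnatal day (x axis); black points are ages with 95% counting intervals and open orange points are the runs of ages with more than 1 run. Complex III stands at 0.267% at pnd56 against 0.145% to 0.169% at the other ages, and complex II at 0.0499% at pnd28 against 0.0890% at pnd14.

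Few single members differed far between the first 3 ages. A member was measured in a comparison if the 2 ages together gave it 50 or more counts, and counted as higher or lower where its level, in counts per 1000000 counts of the age (CPM), differed by at least 1.5-fold. For pnd7 against pnd0, 4 of 38 measured members were higher and 0 lower, where the same rule called 10% of all measured genes higher and 11.5% lower. For pnd14 against pnd7, 1 of 37 was higher and 3 lower, against 16.7% and 24.2% of all genes. For pnd28 against pnd14, 3 of 32 were higher and 11 lower, against 17.4% and 31.9%, so the members' 34.4% lower was near the share in the whole table. For pnd56 against pnd28, 4 of 23 were higher and 3 lower, against 31% and 19.5%. For pnd56 against pnd0, 7 of 34 (20.6%) were higher and 4 (11.8%) lower, against 17.2% and 41.3%. The median log2 ratio of the members was 0.18, −0.07, −0.16, 0.18 and 0.19 in these comparisons, and that of all measured genes −0.00, −0.10, −0.20, 0.20 and −0.36. The comparisons share ages and are not independent of each other.

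**Figure D3:**
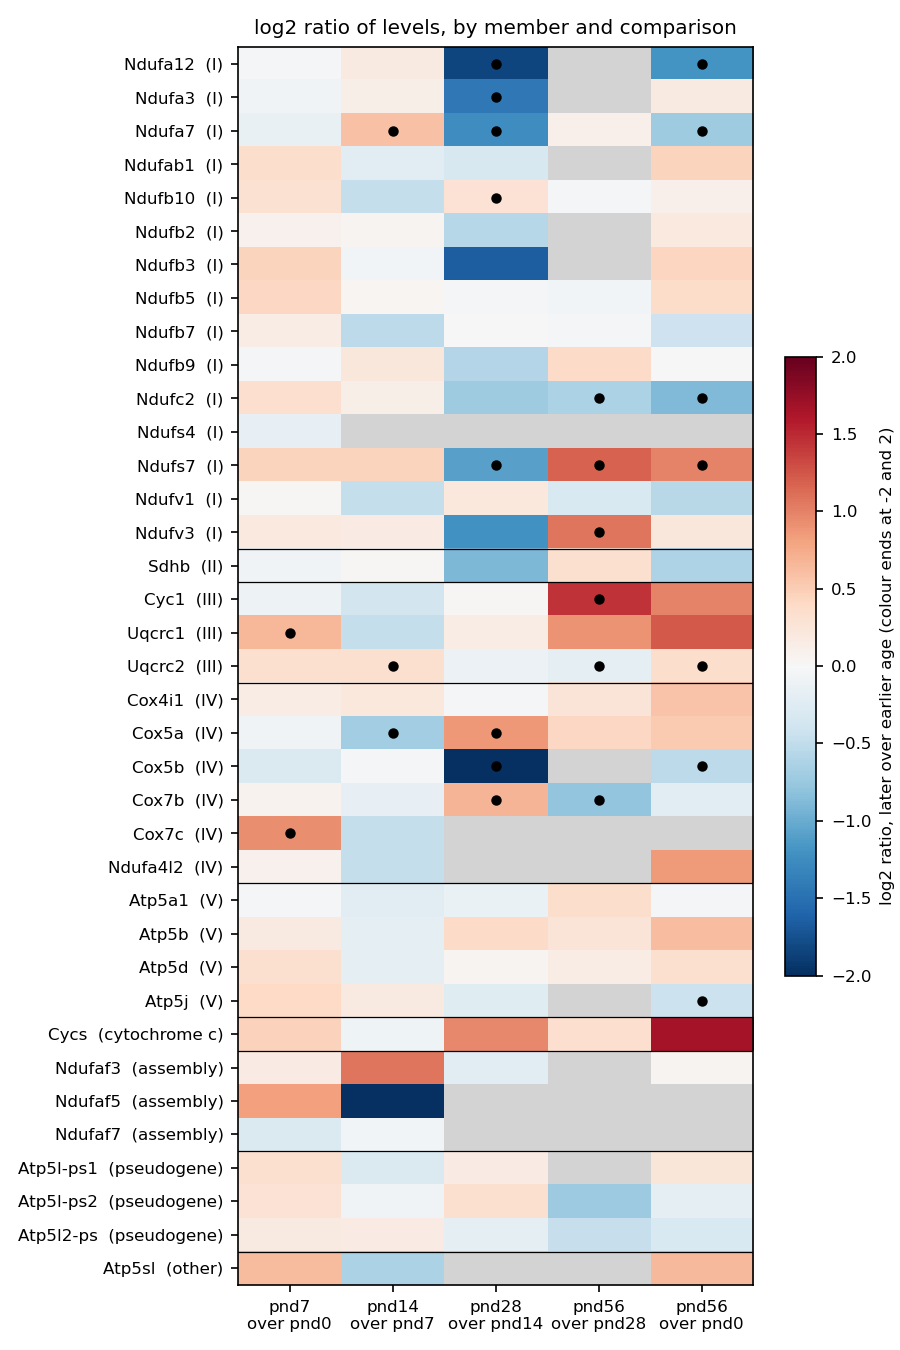
Log2 ratio of levels (colour, ending at −2 and 2) of the measured members reported here in the 5 comparisons, grouped by complex; grey cells have under 50 counts over both ages and black dots mark members that departed from the rest of their complex. The pnd28 against pnd14 column is darkest blue for Cox5b at −2.27, and the pnd56 against pnd0 column is reddest for Cycs at 1.67.

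Within a complex, a member was said to depart where its ratio to the other subunits differed by at least 1.5-fold between the ages, the 95% interval left out no difference, and every run of one age lay beyond every run of the other. Departures numbered 2 of 29 evaluated members for pnd7 against pnd0, 3 of 28 for pnd14 against pnd7, 8 of 26 for pnd28 against pnd14, 6 of 19 for pnd56 against pnd28 and 7 of 27 for pnd56 against pnd0. As shares these are 6.90%, 10.7%, 30.8%, 31.6% and 25.9%. The same rule, applied to each measured gene against the rest of the table, called 11.8%, 21%, 33.8%, 44.2% and 37.9%. The reference differs, a complex in one case and the whole table in the other, and the difference between these shares was not tested. At pnd28 and pnd56 a single run has no other run to overlap with, which makes the rule easier to meet. For pnd56 against pnd28 both ages are a single run, so the run condition could not fail and gave no check. With each cell thinned to 1500 counts, only Cox7b of the 6 departures for pnd56 against pnd28 remained, from 11 members evaluated.

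Complex I, the NADH dehydrogenase, showed its widest differences between pnd14 and pnd28. Ndufs7, the core subunit that carries the last iron-sulphur cluster before ubiquinone, stood at 580.1 CPM at pnd0, 792.7 at pnd7, 1085 at pnd14, 509.1 at pnd28 and 1148 at pnd56. The pnd14 runs, at 1162, 964.4 and 1068 CPM, lay above the pnd28 value and both pnd0 runs (538.3 and 623.2), and overlapped the pnd7 runs (784.3, 1062 and 605.4). Ndufs7 was 2.13-fold lower at pnd28 than at pnd14 (log2 −1.09 [−1.55, −0.66]) and higher at pnd56 than at pnd28 (log2 1.17 [0.66, 1.70]). At equal depth of 1500 counts per cell these were −0.56 and 0.52, under 1.5-fold. Against the rest of complex I, Ndufs7 departed in both comparisons with all counts and in neither at equal depth, and was 2.13-fold higher at pnd56 than at pnd0 (log2 1.09 [0.73, 1.44]).

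Several accessory subunits of complex I were lower at pnd28. Ndufa12, an accessory subunit of the matrix arm, stood at 168.2, 165.1, 186.4, 51.9 and 73.3 CPM over the 5 ages, with 5 counts at pnd28 and 6 at pnd56. It departed from its complex for pnd28 against pnd14 (log2 −1.57 [−3.24, −0.27]) and for pnd56 against pnd0 (log2 −1.19 [−2.67, −0.01]), an interval that nearly includes no difference. With Ndufb10 left out of complex I, Ndufa12 departed in neither comparison. Without the cells that hold marker counts of other cell types it did not depart for pnd56 against pnd0. For pnd28 against pnd14 it had under 50 counts without those cells and was not evaluated. At equal depth it was not among the departing members, but its thinned counts may have been too few to be evaluated. Ndufa7, also of the matrix arm, stood at 636.8, 574.4, 861.5, 363.6 and 390.7 CPM. Its pnd14 runs were uneven, with the run of 24 cells at 1516 CPM beside 673.3 and 748.9 in the other runs; without that run its log2 ratio for pnd14 against pnd7 was 0.31 in place of 0.58. It departed upward for pnd14 against pnd7 (log2 0.76 [0.53, 0.98]) and downward for pnd28 against pnd14 (log2 −1.01 [−1.56, −0.49]) and for pnd56 against pnd0 (log2 −0.71 [−1.29, −0.18]). The upward departure was absent at equal depth, without cells of other-type markers, and without Ndufb10; the downward ones were present under all 3. In level, Ndufa7 at pnd28 against pnd14 was −1.91 on the log2 scale without cells of other-type markers.

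Ndufa3, of the membrane arm, stood at 269.5, 257.9, 279.6, 103.9 and 305.3 CPM and so was low at pnd28 alone, at 10 counts (departure log2 −1.16 [−2.27, −0.21], absent without Ndufb10). At equal depth Ndufa3 was not among the departing members, but its thinned counts may have been too few to be evaluated. Ndufc2, of the membrane arm, stood at 520.1, 658.98, 711.8, 436.4 and 280.9 CPM and was lowest at pnd56, with departures against pnd28 (log2 −0.86 [−1.67, −0.08]) and against pnd0 (log2 −0.89 [−1.58, −0.27]). Ndufv3, of the matrix arm, stood at 542.4, 618.04, 694.8, 301.3 and 634.97 CPM, with a departure for pnd56 against pnd28 (log2 0.92 [0.22, 1.64]). Ndufb3 (−1.64 [−3.58, −0.19]) rested on 4 counts at pnd28, and Ndufb9 (−0.59 [−0.92, −0.27]) was also past 1.5-fold lower at pnd28 than at pnd14.

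Ndufb10 differed in the other direction within the complex. It stood at 3828, 4722, 3389, 4156 and 4103 CPM and held 28% of complex I counts at pnd14 and 42.1% at pnd28 (log2 against the rest 0.90 [0.68, 1.11]). Because this row is uncertain and holds 33.8% of all complex I counts, the departures were also counted with Ndufb10 left out of the rest. For pnd28 against pnd14 there were again 8, but with Ndufb5, Ndufb7 and Ndufv1 in place of Ndufa12, Ndufa3 and Ndufs7. Without Ndufb10, complex I was 0.03 higher at pnd14 than at pnd7 on the log2 scale in place of 0.13 lower. Ndufb7, of the membrane arm, stood at 1813, 2007, 1395, 1392 and 1368 CPM and Ndufb9 at 1277, 1257, 1472, 976.6 and 1270. For pnd56 against pnd0 the log2 ratio of Ndufb7 was −0.79 [−1.28, −0.34] at equal depth. It departed from its complex there, but not with all counts or without cells of other-type markers. Ndufv1 stood at 518.4, 529.4, 378.5, 436.4 and 354.1 CPM. At equal depth its log2 ratio was 1.06 [0.40, 1.70] for pnd28 against pnd14, where all counts gave an interval that includes no difference, and 0.17 for pnd56 against pnd0, the other direction from all counts. Of the other core subunits, Ndufs1 had 31 counts over all ages, Ndufs3 15, Ndufv2 4 and Ndufs8 3, too few to compare ages. The remaining rows of complex I with 50 or more counts, Ndufb5, Ndufb2, Ndufab1 and Ndufs4, were under 1.5-fold apart wherever they were measured, and the other 10, with Ndufa10 the highest at 22 counts, were too low to read.

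Complex II was carried by Sdhb, its iron-sulphur subunit. Sdhb stood at 895.96 [820.7, 976.2] CPM at pnd0, 856.8 [791.1, 926.5] at pnd7, 872.8 [778.2, 975.7] at pnd14, 467.5 [341.03, 625.6] at pnd28 and 586.1 [432.2, 777.1] at pnd56. The 2 later ages were low, and below every run of the first 3 ages except the pnd14 run of 24 cells at 551.1 CPM, which lay under pnd56. Sdhb was 1.87-fold lower at pnd28 than at pnd14 (log2 −0.90 [−1.39, −0.45]) and 1.53-fold lower at pnd56 than at pnd0 (log2 −0.61 [−1.07, −0.18]). Without cells of other-type markers both were under 1.5-fold, as was the latter at equal depth. Sdha had 26 counts and Sdhc, a membrane anchor, 4. Whether the complex as a whole behaved like Sdhb cannot be read from these rows.

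Complex III held 2 of the members that were highest in the adult. Cyc1, the haem-bearing cytochrome c1 that passes electrons to cytochrome c, stood at 679.7 [614.4, 750.05] CPM at pnd0, 635.8 [579.4, 696.2] at pnd7, 491.5 [421.1, 570.2] at pnd14, 498.7 [367.7, 661.2] at pnd28 and 1355 [1115, 1632] at pnd56. The pnd56 value lay above all 9 runs of the other ages, which ranged from 183.7 to 717.2 CPM, the lowest being the pnd14 run of 24 cells. Cyc1 was 2.72-fold higher at pnd56 than at pnd28 (log2 1.44 [0.94, 1.96]) and 1.99-fold higher than at pnd0 (log2 0.995 [0.68, 1.30]). Without the cells that hold marker counts of other cell types the first log2 ratio was 1.98. No single cell at pnd56 held more than 14 of the Cyc1 counts.

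Uqcrc1, a core protein on the matrix side, stood at 369.03 [321.3, 421.8] CPM at pnd0, 583.9 [529.9, 641.97] at pnd7, 420.8 [355.99, 494.1] at pnd14, 467.5 [341.03, 625.6] at pnd28 and 866.97 [677.1, 1094] at pnd56. The pnd7 runs, at 480.4, 633.1 and 637.1 CPM, lay above the pnd0 runs at 399.5 and 337.7. Uqcrc1 was 1.58-fold higher at pnd7 than at pnd0 (log2 0.66 [0.42, 0.91]) and departed from its complex there (log2 0.63 [0.35, 0.92]). At pnd56 it was 2.35-fold higher than at pnd0 (log2 1.23 [0.82, 1.63]). Its partner Uqcrc2 stood at 355.3, 443.4, 553.6, 509.1 and 451.8 CPM and was not highest in the adult. Against the rest of complex III, Uqcrc2 was 2.43-fold lower at pnd56 than at pnd28 (log2 −1.28 [−2.04, −0.53]), and 1.59-fold lower than at pnd0 (log2 −0.67 [−1.27, −0.10]). It was 1.56-fold higher at pnd14 than at pnd7 (log2 0.65 [0.32, 0.96]). Uqcrc2 held 24.5% of complex III counts at pnd0 and 16.9% at pnd56, although both core proteins belong to the same complex. Uqcrq had 65 counts over all ages and 0 at pnd56, where 0 allows up to 36.6 CPM, and the other 3 rows had 13 or fewer.

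Cycs, which encodes the cytochrome c that shuttles between complexes III and IV, stood at 111.6 [86.1, 142.2] CPM at pnd0, 152.8 [125.8, 183.9] at pnd7, 144.05 [107.3, 189.4] at pnd14, 280.5 [184.9, 408.1] at pnd28 and 354.1 [237.2, 508.6] at pnd56. Both later ages lay above all 8 runs of the first 3 ages, which ranged from 107.2 to 179.5 CPM. Cycs was 3.17-fold higher at pnd56 than at pnd0 (log2 1.67 [0.98, 2.32]) and 1.95-fold higher at pnd28 than at pnd14 (log2 0.96 [0.23, 1.66]). Without the cells of other-type markers the latter was 1.93 on the log2 scale. The values rest on 27 counts at pnd28 and 29 at pnd56. Cycs is a minus-strand row, and the cause of the low counts of that strand was not tested.

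**Figure D4:**
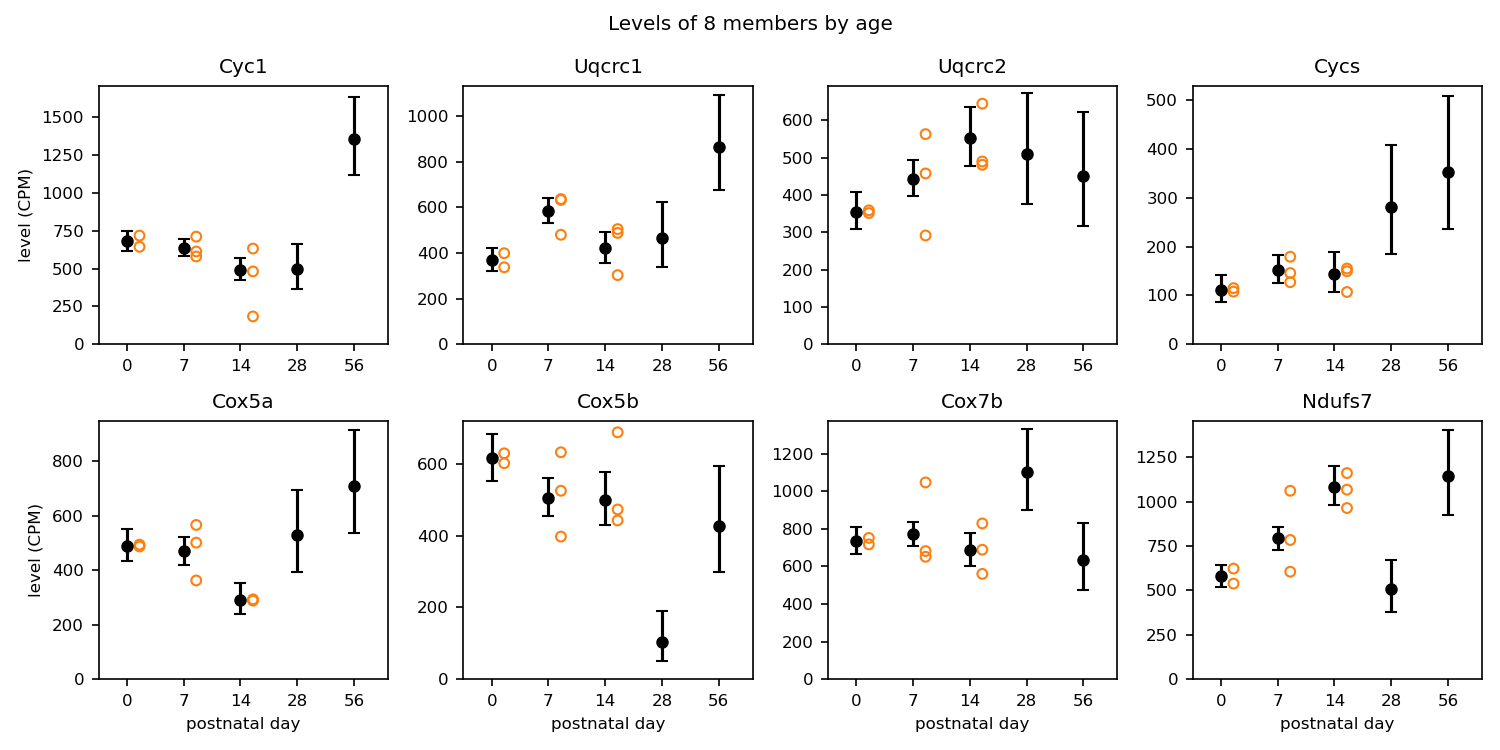
Levels of 8 members in CPM (y axis) at each postnatal day (x axis); black points are ages with 95% counting intervals, and open orange points are the runs of ages with more than 1 run. Cyc1 stands at 1355 CPM and Uqcrc1 at 866.97 CPM at pnd56 while Uqcrc2 stands at 451.8, and Cox5b is at 103.9 CPM at pnd28.

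Complex IV, cytochrome c oxidase, kept a nearly even share while its members differed in opposite directions at pnd28. Cox5b, an accessory subunit that binds zinc, stood at 616.2 [554.1, 683.3] CPM at pnd0, 506.2 [455.97, 560.4] at pnd7, 499.9 [428.99, 579.3] at pnd14, 103.9 [49.8, 191.1] at pnd28 and 427.4 [297.7, 594.4] at pnd56. The pnd28 value came from 10 counts in 7 of 56 cells and lay below all runs of the other ages, the lowest of which was 397.7 CPM. Cox5b was 4.81-fold lower at pnd28 than at pnd14 (log2 −2.27 [−3.35, −1.35]) and 5.67-fold lower against the rest of complex IV (log2 −2.50 [−3.61, −1.57]). Its gene end shares 22.3% of its words with Gm11273, and reads may have been split between them. At equal depth, and without cells of other-type markers, Cox5b also departed. At pnd56 it was within 1.5-fold of pnd0 in level (log2 −0.53) and 1.88-fold lower against its complex (log2 −0.91 [−1.49, −0.37]).

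Cox5a, which also faces the matrix, differed in the other direction. It stood at 490.9 [435.6, 551.2] CPM at pnd0, 469.3 [421.04, 521.6] at pnd7, 290.9 [237.5, 352.8] at pnd14, 529.9 [394.5, 696.7] at pnd28 and 708.2 [537.8, 915.6] at pnd56. The 3 pnd14 runs, at 288.6, 290.9 and 293.04 CPM, lay below the pnd7 runs at 566.7, 501.6 and 362.5. Against its complex Cox5a was 1.68-fold lower at pnd14 than at pnd7 (log2 −0.75 [−1.10, −0.41]) and 1.90-fold higher at pnd28 than at pnd14 (log2 0.93 [0.37, 1.46]). Without cells of other-type markers Cox5a did not depart for pnd14 against pnd7; at equal depth it did. Cox7b, a small membrane subunit, stood at 734.6 CPM at pnd0, 772.2 at pnd7, 686.4 at pnd14, 1101 at pnd28 and 634.97 at pnd56, and was highest at pnd28. It departed upward for pnd28 against pnd14 (log2 0.86 [0.45, 1.26]) and downward for pnd56 against pnd28 (log2 −1.30 [−1.88, −0.74]). Cox7c, with 18 counts at pnd0 and 43 at pnd7, departed upward at pnd7 (log2 0.91 [0.08, 1.80]). Without cells of other-type markers it did not depart. At equal depth 27 of the 29 members were evaluated, and Cox7c had too few counts to be judged.

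The isoform families of complex IV were unevenly covered. Cox4i1, the common form of subunit 4, stood at 1277, 1408, 1630, 1579 and 1893 CPM, 1.48-fold or less above pnd0 at each age, with pnd7 and pnd14 each taking a wide range of runs (1102 to 1632 and 734.8 to 2123 CPM). Its alternative form Cox4i2, a plus-strand gene known from lung, had 5 counts, 4 of them at pnd0. Cox7a1, the heart and muscle form, had 8 counts at pnd0, 3 at pnd7, 11 at pnd14 and 0 at pnd28 and pnd56, where 0 allows up to 31.2 and 36.6 CPM. None of the 11 counts at pnd14 lay in cells with 5 or more marker counts of other cell types, although that age had most smooth muscle markers. Cox7a2, the common partner of Cox7a1, cannot be compared with it, since its row had 4 counts on the minus strand. Cox6a1 had 22 counts, Cox6b2, known from testis, 20, and Cox8a 4. Ndufa4 had 49 counts, and Ndufa4l2, a form induced by low oxygen, had 67, 89, 31, 5 and 17 counts; its pnd56 against pnd0 log2 ratio was 0.85 [−0.01, 1.64]. Ndufa4l2 ends tail to tail with Shmt2 and Cox7a1 with Capns1.

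Complex V, the ATP synthase, had no measured subunit past 1.5-fold in the first 4 comparisons. Atp5d, the delta subunit of the rotating stalk, stood at 2896 [2759, 3037] CPM at pnd0, 3602 [3466, 3742] at pnd7, 3135 [2953, 3325] at pnd14, 3273 [2921, 3655] at pnd28 and 3627 [3226, 4063] at pnd56. Atp5b, the catalytic beta subunit, stood at 1706 [1602, 1816], 1925 [1826, 2028], 1692 [1559, 1833], 2203 [1916, 2519.95] and 2625 [2286, 3001] CPM, and was 1.54-fold higher at pnd56 than at pnd0 (log2 0.62 [0.40, 0.84]); at equal depth this was 0.40 and under median-of-ratios scaling 0.35, both under 1.5-fold. Atp5a1, the alpha subunit that alternates with beta in the same ring, stood at 1280.4, 1252, 1082, 987.03 and 1258 CPM, with a log2 ratio of −0.03 for pnd56 against pnd0. At equal depth this ratio was −0.41 [−0.95, 0.09]. Against its complex Atp5a1 departed in that comparison at equal depth and without cells of other-type markers, but not with all counts. Atp5j, of the peripheral stalk, stood at 262.6, 347.9, 392.6, 332.5 and 195.4 CPM and departed downward for pnd56 against pnd0 (log2 −0.77 [−1.63, −0.01]) on 16 counts, but not at equal depth. The other 7 rows of complex V had 19 counts or fewer each, among them Atp5g1 and Atp5g2 of the proton ring with 5 and 4.

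The rows that are no subunit differed more unevenly. Ndufaf5, an assembly factor that modifies a complex I subunit, had 23, 51, 6, 0 and 5 counts over the 5 ages, and was 4.11-fold lower at pnd14 than at pnd7 (log2 −2.04 [−3.55, −0.82]). Leaving out each run in turn this ranged from −2.93, without 1 pnd14 run, to −1.53, and at equal depth its interval included no difference; 0 at pnd28 allows up to 31.2 CPM. Ndufaf3 stood at 82.4, 92.8, 194.9, 166.2 and 85.5 CPM and was 2.10-fold higher at pnd14 than at pnd7 (log2 1.07 [0.57, 1.58]). The 3 pseudogene rows of Atp5l, all on the plus strand, are Atp5l-ps1, Atp5l-ps2 and Atp5l2-ps. Atp5l itself, a subunit of complex V on the minus strand, was not analysed here, and reads of near-identical copies may have been split between them. Atp5l2-ps stood at 468.6, 532.1, 593.1, 519.5 and 378.5 CPM, Atp5l-ps1 at 154.5, 193.7, 158.2, 176.6 and 183.2 CPM, and Atp5l-ps2 at 266.04, 323.3, 307.9, 384.4 and 232.01 CPM. Ndufaf7 had a level of 68.7, 55.9, 53.7, 20.8 and 12.2 CPM, Ndufaf4 had 53 counts, Ndufaf6 and Sdhaf1 1 count each, and Atp5s 27. Atp5sl stood at 70.4, 109.1, 70.6, 83.1 and 109.9 CPM.

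The share of cells with a count followed depth as well as level, so it was compared at 1500 counts per cell, which left out 9, 13, 60, 23 and 20 shallower cells of the 5 ages and kept 33 cells at pnd28 and 25 at pnd56. At this depth a cell had counts for a median of 13, 14, 14, 12 and 14 of the 65 subunit rows, against 17, 17, 13, 12 and 15 before thinning. The drop over the first 3 ages before thinning was therefore not present at equal depth. Ndufb10 was found in 98.2%, 99.2%, 93.8%, 97% and 96% of cells at equal depth (98.8%, 100%, 95.4%, 96.4% and 97.8% before), and Atp5d in 92.7%, 93.7%, 91.2%, 97% and 100%. Atp5b was found in 85.4%, 87%, 83.2%, 100% [89.4, 100] and 92%. Cox4i1 was found in 72.6%, 72%, 74.3%, 72.7% and 84%. No cell type is known to lack these genes, so no share gives the background of free RNA.

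Sdhb and Cox5b had their lowest share of cells at pnd28. At equal depth Sdhb was found in 57.3% [49.4, 65], 59.8% [53.5, 65.9], 54.9% [45.2, 64.2], 30.3% [15.6, 48.7] and 56% [34.9, 75.6] of cells (73.4%, 71.9%, 49.7%, 35.7% and 46.7% before thinning). At equal depth its pnd56 share, from 25 cells, lay beside those of the first 3 ages. Its lower pnd56 level came from all cells and all counts, so share and level are not like for like. Cox5b was found in 46.3% [38.5, 54.3], 44.5% [38.3, 50.8], 37.2% [28.3, 46.8], 15.2% [5.11, 31.9] and 36% [18, 57.5] (67.6%, 56.6%, 35.8%, 12.5% and 44.4% before). Cyc1 was found in 42.7% [35, 50.6], 48% [41.7, 54.4], 39.8% [30.7, 49.5], 30.3% [15.6, 48.7] and 60% [38.7, 78.9] (57.2%, 55.8%, 35.3%, 35.7% and 57.8% before). The pnd56 intervals are wide, from 25 cells, and overlap those of most other ages. Uqcrc1 went from 33.3% at pnd28 to 52% at pnd56, and Cycs from 15.2% to 28%, both within overlapping intervals.

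**Figure D5:**
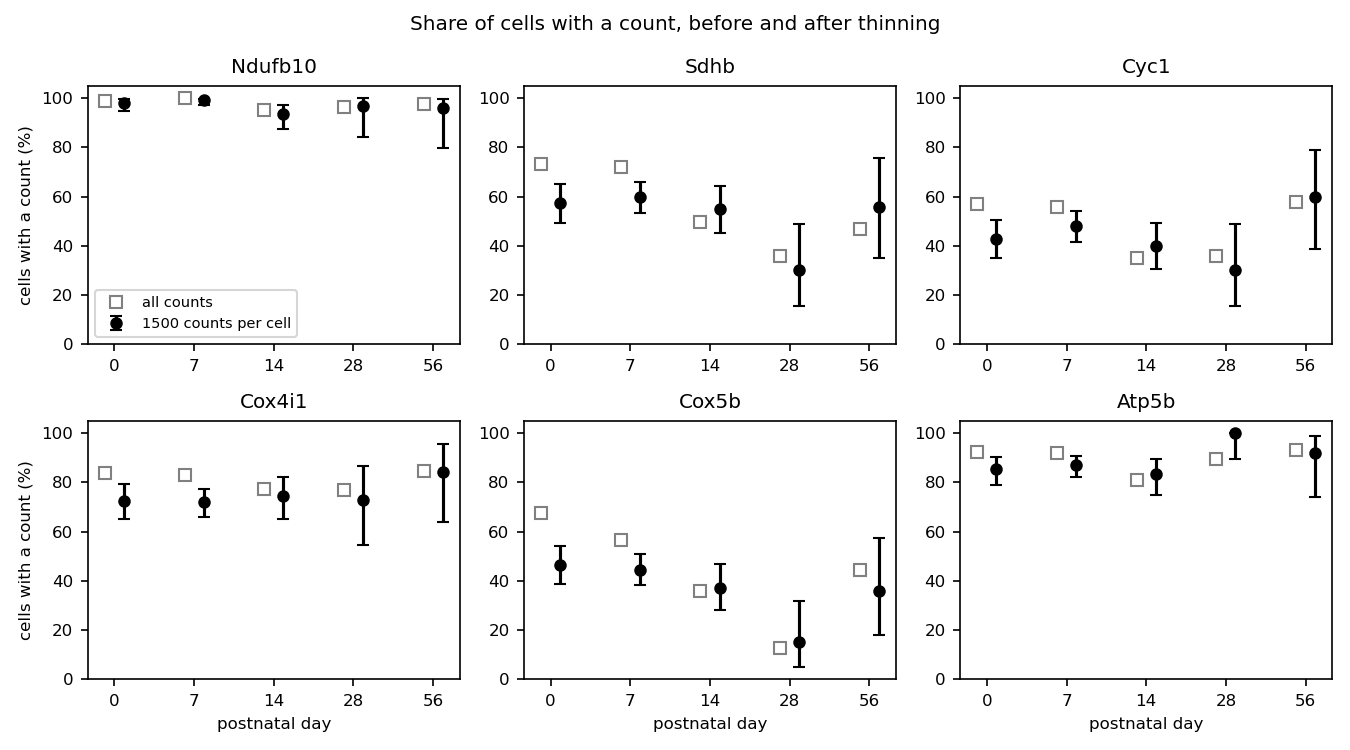
Share of cells with a count (y axis, %) at each postnatal day (x axis) for 6 members; grey squares use all counts and black points, with 95% Clopper-Pearson intervals, cells thinned to 1500 counts. Cox5b is at 15.2% and Sdhb at 30.3% at pnd28, while Ndufb10 stands between 93.8% and 99.2%.

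Other mitochondrial and energy genes, from 7 lists, give the surroundings. Mitochondrial ribosome genes held 0.904%, 1.03%, 0.906%, 0.807% and 1.14% of counts over the ages. Their order of ages was like that of the members as a whole, except that pnd56 was highest. Of those with at least 50 counts, 10 of 37 were higher and 5 lower for pnd56 against pnd0, where 17.2% of all measured genes were higher and 41.3% lower; the 10 were led by Mrpl36 (log2 2.59 [2.04, 3.13]). Genes of respiratory chain assembly and copper delivery held 0.193%, 0.208%, 0.186%, 0.167% and 0.255%; of 6 measured for pnd56 against pnd0, 1 was higher, Coa3, an assembly factor of complex IV (log2 1.16 [0.74, 1.56]). Coa3 was also 0.61 higher on the log2 scale at pnd7 than at pnd0.

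Pyruvate dehydrogenase and citric acid cycle genes held 0.158%, 0.173%, 0.149%, 0.185% and 0.217% of counts. For pnd56 against pnd0, 3 of 8 were higher and 0 lower, against the same 17.2% and 41.3% of all genes, which also hold for the lists that follow in this comparison. Among the 3 were Suclg1 of succinyl-CoA ligase (log2 1.35 [0.82, 1.85]) and malate dehydrogenase Mdh2 (0.77 [0.23, 1.27]). Sdhb, which belongs to the same cycle, was lower in that comparison. Mitochondrial carriers and channels held 0.195%, 0.221%, 0.232%, 0.187% and 0.261%, with 2 of 5 higher for pnd56 against pnd0, the ADP/ATP carrier Slc25a5 (1.25 [0.84, 1.65]) and the pyruvate carrier subunit Mpc2 (1.26 [0.69, 1.80]). Import genes held 0.161%, 0.154%, 0.149%, 0.121% and 0.176%, with 2 of 9 higher and 1 lower. Regulators of mitochondrial biogenesis held 0.0560%, 0.0596%, 0.0590%, 0.0655% and 0.0525%, and of 2 measured for pnd56 against pnd0, 1 was higher and 1 lower.

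Glycolysis genes had a wide range, at 1.41%, 1.48%, 1.13%, 0.898% and 1.46% of counts. For pnd14 against pnd7, 4 of 9 were lower and 0 higher, against 24.2% and 16.7% of all measured genes, among them the enolase Eno1 (log2 −1.49 [−1.78, −1.21]) and Gapdh (−0.69 [−0.77, −0.61]). For pnd56 against pnd28, 3 of 6 were higher and 0 lower, against 31% and 19.5%, led by lactate dehydrogenase Ldha (1.36 [1.04, 1.69]). Over all cells, glycolysis and respiratory chain shares were thus both lowest at pnd28, an age of 1 run. Without cells of other-type markers the respiratory chain share was 2.51% at pnd28 and 2.49% at pnd0, so pnd28 was not lowest there.

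Marker counts of other cell types differed with age beside these results. The epithelial list held 0.830%, 0.768%, 1.09%, 0.720% and 0.756% of counts. Smooth muscle markers held 0.00687%, 0.0180%, 0.281%, 0.130% and 0.0110%, with 4 of 8 genes having a row. Stroma and fibroblast markers, 7 of 8 with a row, held 0.00395%, 0.0120%, 0.0765%, 0.332% and 0.286%, with Hoxa11 at 0 at all ages but pnd28. Erythroid markers, 4 of 8 with a row, held 1.35% at pnd0 and 0.0311%, 0.0263%, 0.0166% and 0% after; endothelial (4 of 5), immune (3 of 6) and mesothelial (2 of 4) markers each held at most 0.0322% at any age. Cells with 5 or more counts over these lists of other types were 19.7%, 15%, 32.4%, 33.9% and 6.67% of each age. In them the members held 2.41%, 2.77%, 2.46%, 2.19% and 3.05% of counts, against 2.49%, 2.80%, 2.64%, 2.51% and 2.74% in the other cells. Without these cells the adult level of complex III was 0.273% and its pnd28 level 0.162%, so the difference was there without them too. Complex II was 0.0860% at pnd14 and 0.0635% at pnd28 without them, a smaller difference than with all cells, and their part in it was not tested.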

How the data were processed

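Single uterine cells had been prepared as CEL-seq libraries, which read the 3′ end of each transcript, per the labels' protocols. The authors deposited 1 table of raw counts, whole numbers with genes as rows and cells as columns. Per the submitters' processing notes, TopHat, Cuffnorm and the build mm9 were used, with no role given to each; no source states the counter, its strand setting or the use of molecular identifiers. The series text gives 960 sorted cells, of which 714 were analysed.

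Counts were summed over the cells of an age and divided by the age's total (CPM). Intervals are exact Poisson for levels, exact conditional binomial for ratios, exact conditional odds ratios for a member against its complex, and Clopper-Pearson for shares of cells, all at 95% and for counting error only. Where a count was 0, 3 counts gave the limit. Equal depth means cells thinned without replacement to 1500 counts (seed 11). Strand and neighbours came from GENCODE M21, whose build differs from mm9, so it gave no coordinates. The calculations (Python 3.11.15, NumPy 2.4.6, SciPy 1.17.1) were tested on simulated data.

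Members and gene lists were chosen with earlier results of these data known. Members given in full were those that depart from their complex, the 2 with most counts per complex, isoform families and catalytic subunits. Neighbouring genes and the remaining low rows were named after their values were seen. Rows were matched to strand for 12107 names, and 372 had no match. The values of 1 member and 1 other gene are not reported here; both stay in the sums and counts.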

Additional observations from a re-analysis of the deposited data

How the results depend on the processing

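Each age is 1 sample, so the alternatives move values and no test. With median-of-ratios scaling the log2 ratio of all members was 0.077 for pnd7 against pnd0, −0.060 for pnd14 against pnd7, −0.21 for pnd28 against pnd14, 0.089 for pnd56 against pnd28 and −0.10, a reversed direction, for pnd56 against pnd0; complex IV was then −0.013 for pnd56 against pnd0. At equal depth it was 0.14 for pnd7 against pnd0 and 0.066 for pnd56 against pnd0, complex V was −0.056 for pnd56 against pnd28 and Ndufb7 −0.11 for pnd7 against pnd0. Averaging the cells' own shares gave −0.040 for pnd28 against pnd14, and leaving out cells with markers of other types 0.13 for pnd56 against pnd28. The next 2 alternatives were chosen after seeing the data. Without Ndufb10 the ratio was −0.052 for pnd14 against pnd7 and −0.19 for pnd28 against pnd14, and complex I was 0.031 for pnd14 against pnd7. With plus-strand members only it was 0.15, −0.055 and −0.19 for the first 3 comparisons, and complex I was 0.071 for pnd14 against pnd7.

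Counts of members moved as follows. For pnd7 against pnd0, 4 higher became 2 under median-of-ratios scaling, 2 at a minimum of 100 counts, 2 on the plus strand and 0 at 2-fold; 0 lower became 1 at a minimum of 20; 2 departing became 1 at equal depth, 1 without marker cells and 0 at 2-fold. For pnd14 against pnd7, 1 higher became 2 under median-of-ratios scaling, at equal depth and without marker cells, 4 at a minimum of 20 and 0 on the plus strand; 3 lower became 6 at equal depth and 1 at 2-fold; 3 departing became 6 at equal depth and 0 at 2-fold. For pnd28 against pnd14, 3 higher became 0 at 2-fold, 11 lower became 7 at equal depth, without marker cells and at 2-fold, and 8 departing became 4 at 2-fold. For pnd56 against pnd28, 4 higher became 9 at a minimum of 20; 3 lower became 0 at equal depth, 5 at 20, 1 at 100 and 0 at 2-fold; 6 departing became 1 at equal depth and 10 at 20. For pnd56 against pnd0, 7 higher became 4 under median-of-ratios scaling, 4 at 100 and 2 at 2-fold; 4 lower became 9 under median-of-ratios scaling, 7 at 20 and 1 at 2-fold; 7 departing became 2 at 2-fold.

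Leaving out each run in turn, the ratio of all members ranged from 0.14 to 0.25 for pnd7 against pnd0, from −0.19 to −0.079 for pnd14 against pnd7, from −0.14 to −0.057 for pnd28 against pnd14 and from 0.15 to 0.18 for pnd56 against pnd0. Members higher ranged from 1 to 5, 1 to 3, 3 to 3 and 4 to 6 in these comparisons, and members lower from 0 to 0, 1 to 6, 9 to 10 and 3 to 4. Cox4i1 ranged from −0.15 (without run 1) to 0.49 for pnd7 against pnd0 and from −0.17 (without run 7) to 0.38 for pnd14 against pnd7, and Ndufb9 from −0.046 (without run 10) to 0.40 for pnd14 against pnd7. Departures were not recounted with runs left out. No paired analysis was possible because no animal or replicate number links cells of different ages.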
